A study of Vitis amurensis with 6 samples.

Results

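The 200 genes described here come from 6 RNA-seq libraries of cold-treated callus of Vitis amurensis, the Amur grape. They varied least among the genes with a middle level of expression and whole-number reads. They were taken from 16645 genes in the deposited table. Reads were divided by the total of their library and given per 1000000 reads (CPM). Of 7648 genes with a mean of 20 to 150 CPM over the 6 libraries, 4270 had whole-number reads in every library, and these were ranked by the coefficient of variation of CPM over the 6 libraries (CV, the SD divided by the mean). The 200 genes with the lowest CV are the members, and the remaining 4070 genes are called the other genes of the level range. When genes with fractions of a read were allowed as well, 94 of the 200 members were chosen again. Since the CV over these libraries chose the members, their CVs, fold changes and calls are given as a description, with no test.

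Of the 6 libraries, 3 came from callus that overexpresses VaWRKY12, a transcription factor of the WRKY family, and 3 from callus called EV, whose genotype label reads Envelope. The labels name neither the transgene's promoter nor the number of callus lines, nor do they tie the libraries to separate cultures. Callus, a mass of unorganised cells, was raised in both groups from petiole segments, selected on 20 mg/L kanamycin and kept dark at 25 °C. In both groups it was moved to new B5 medium for 15 days and then held at 4 °C for 24 hours. All 6 libraries were chilled, so the spread described here is that within chilled callus of 2 genotypes, and constancy between temperatures was not measured. Library totals ran from 8795632 to 14966502 reads. VaWRKY12 replicate 3 stood apart from the rest: it was the lowest of the 6 libraries for 32.7% and the highest for 26.7% of the other genes of the level range, against 6.07% to 22.9% for each remaining library at either end. Several results are therefore also given without it, though not all those that include it.

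Genes of steady level serve as references in quantitative RT-PCR, where the signal of a gene of interest is divided by that of a gene taken to be constant. The textbook references, such as actin, ubiquitin and elongation factor genes, belong to the general upkeep of the cell. WRKY factors bind W-box sequences in DNA and are known for roles in plant responses to stress, cold included. Introns are the stretches of a gene that are spliced out of its transcript, and plant genes differ widely in how many they carry and how long they are. The deposited table pairs its identifiers with no gene names, so the members are given by identifier, position and structure, and which of them belong to the textbook reference families is not known. No sequence was in the sources used here, and none is printed.

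The lowest CV belonged to GSVIVT01011076001, a gene of 4 coding exons on chromosome 7 (1782333 to 1786760, minus strand). Its values were 39.8, 40.5 and 40.4 CPM in VaWRKY12 replicates 1, 2 and 3 and 39.6, 39.4 and 41.0 CPM in the EV replicates. Its mean over the 6 libraries was 40.1 ± 0.617 CPM (SD, n = 6), a CV of 1.54%. Counting error alone, taken as Poisson, gives a CV of 4.94% at this level, so 1.54% cannot be read as the gene's own spread. The groups overlapped, and EV held both its lowest and its highest library.

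Next came GSVIVT01003252001, a gene of 3 exons on the unplaced sequence Un (8351782 to 8360215). Its values were 31.4, 31.3 and 30.4 CPM in VaWRKY12 and 31.4, 31.9 and 31.2 CPM in EV, a CV of 1.58%. The lowest of these values was that of VaWRKY12 replicate 3, and the groups overlapped. GSVIVT01008087001, with 14 exons on chromosome 17 (5874366 to 5894018, minus strand), had 43.8, 44.8 and 44.9 CPM in VaWRKY12 and 44.7, 43.2 and 43.4 CPM in EV. Its CV was 1.70%, again with overlapping groups.

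Of the members above 80 CPM, the steadiest was GSVIVT01032990001, a gene of 12 exons on chromosome 14 (24919764 to 24932435, plus strand). It reached 119, 122 and 118 CPM in VaWRKY12 and 124, 123 and 119 CPM in EV (CV 1.90%). GSVIVT01016865001, with 19 exons on chromosome 9, had 84.5, 84.6 and 83.8 CPM in VaWRKY12 and 84.9, 85.5 and 88.5 CPM in EV. All 3 EV values of this gene lay above all 3 VaWRKY12 values, by margins that left a CV of 1.92%. The compact gene GSVIVT01015493001, with 4 exons in a span of 1296 bases on chromosome 11, had 141, 133 and 139 CPM in VaWRKY12 and 136, 136 and 135 CPM in EV. Here the EV libraries lay inside the range of the VaWRKY12 libraries.

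The remaining 4 of the 10 lowest CVs ran from 1.97% to 2.29%. They belonged to GSVIVT01000597001 on chromosome 1, GSVIVT01016798001 on chromosome 9, GSVIVT01009341001 on chromosome 18 and GSVIVT01016199001 on chromosome 13. The last of these had 97.6, 99.7 and 97.3 CPM in VaWRKY12 and 101, 102 and 103 CPM in EV, so that its groups did not overlap although its CV was 2.29%. A common measure of reference genes is the mean SD of the log2 ratios of a gene to every other gene of a set. Its median was 0.0387 within these 10 genes and 0.0744 within all 200 members, against 0.292 within the 4270 genes of the level range, an order that the choice by CV fixes.

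**Figure D1:**
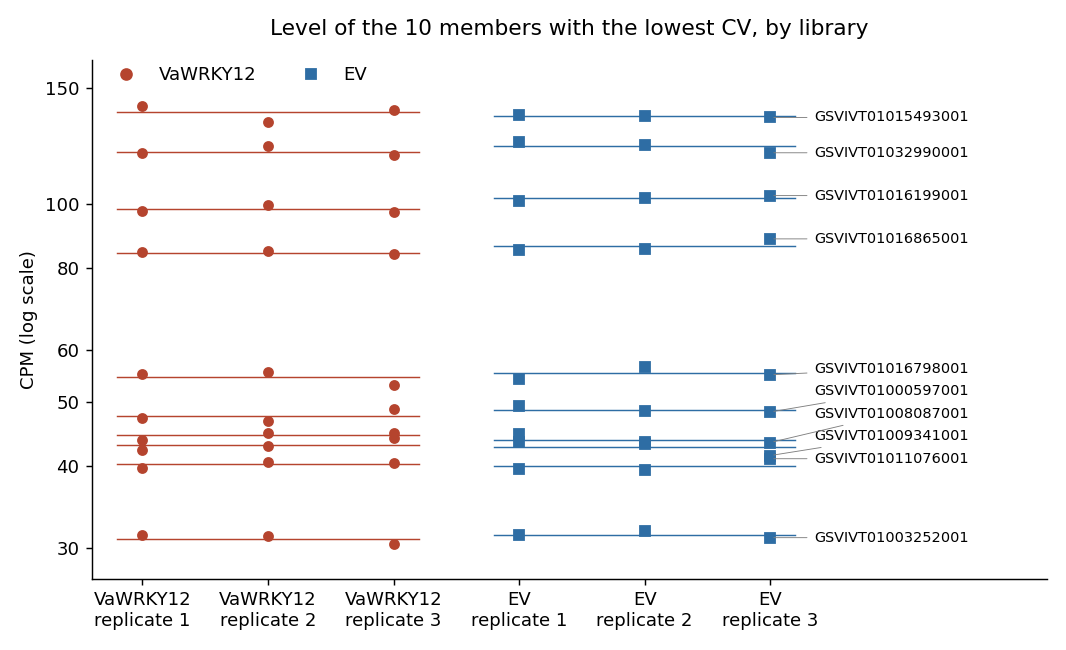
Level in CPM (log axis) of the 10 members with the lowest CV in each library, VaWRKY12 as circles and EV as squares, with a line at each group's mean. The genes lie between 30.4 and 141 CPM, and the values of each gene stay near a level line across the 6 libraries.

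The CVs of the members ran from 1.54% to 4.67%, with a median of 3.84%, against 4.68% to 134% and a median of 12.3% among the other genes of the level range. The highest library of a member exceeded its lowest by 1.04 to 1.15 times (median 1.11), against a median of 1.39 times for the other genes. The members' mean levels ran from 20.2 to 146 CPM, with a median of 57.7 CPM, against 43.5 CPM in the other genes. Per coding length, their median level was 51.0 RPKM, against 37.8 RPKM in the other genes. In bulk libraries, fewer cells of a type and less RNA per cell cannot be told apart, and CPM gives a share of the reads, so that a steady value here is a steady share.

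The cut fell inside a dense part of the ranking. Just inside it were GSVIVT01037441001, GSVIVT01013563001 and GSVIVT01000906001, with CVs of 4.65%, 4.66% and 4.67%. Just outside were GSVIVT01024807001, GSVIVT01027409001 and GSVIVT01016749001, with 4.68%, 4.68% and 4.68%. GSVIVT01000906001 had 31.6, 30.9 and 29.0 CPM in VaWRKY12 and 31.0, 28.9 and 28.2 CPM in EV, and GSVIVT01024807001 had 135, 142 and 132 CPM in VaWRKY12 and 144, 150.2 and 138 CPM in EV. At the far end of the level range GSVIVT01017644001 (CV 134%) had 73.1, 44.0 and 7.0 CPM in VaWRKY12 and 2.33, 3.19 and 3.64 CPM in EV, with no overlap between groups and with VaWRKY12 replicate 3 far below the other 2 libraries of its group.

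The CVs were set beside the counting error. Counting error alone, taken as Poisson, gives a CV of 7.0% at 20 CPM and 2.56% at 150 CPM over these library totals. The 10 lowest member CVs, at most 2.29%, were all below that 2.56%, so they cannot be read as the genes' own spread. The CV was at or below the counting error in 125 of the 200 members, against 85 of the 4070 other genes, and the median ratio of CV to counting error was 0.876 in members and 2.71 in other genes. A gene at 45.0 CPM has a counting error equal to the highest member CV of 4.67%. The 69 members below that level therefore all had a CV below their counting error, and could not have been members otherwise. Of the 131 members above it, 75 had a CV above their counting error. Members of 80 to 150 CPM (60 genes) had a median ratio of 1.22, those of 40 to 80 CPM (86 genes) 0.888 and those of 20 to 40 CPM (54 genes) 0.673. At 20 CPM a library held 176 to 299 reads of a gene, so the spread of the members at the low end was measured less closely than that of the members at the high end.

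**Figure D2:**
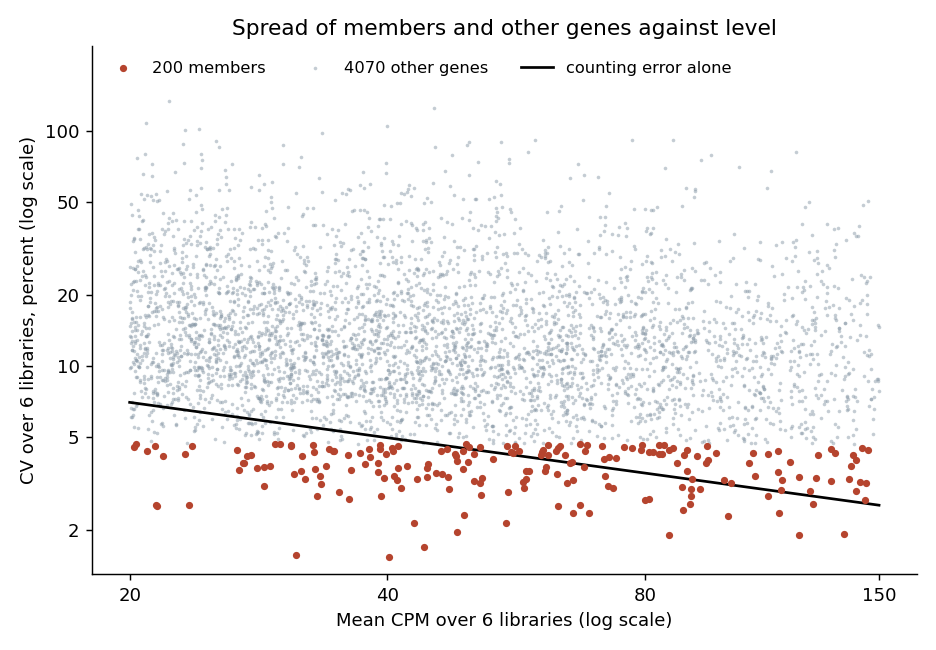
CV over 6 libraries against mean CPM (both log axes) for the 200 members and the 4070 other genes, with the CV that counting error alone gives as a line. The members lie below 4.67%, and the 69 of them at less than 45.0 CPM all lie under the line.

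A choice made on 5 libraries was followed into the library it had not used. For each library in turn, 200 genes were chosen by the same rule on the remaining 5, and their deviation from the mean of those 5 was measured in the library left out. The median absolute deviation was 5.17%, 4.87% and 8.62% in VaWRKY12 replicates 1, 2 and 3 and 5.57%, 5.41% and 4.68% in EV replicates 1, 2 and 3. The other genes of the level range deviated by 9.31%, 8.04% and 15.8% in VaWRKY12 and by 10.5%, 11.3% and 7.44% in EV. In each of the 6 libraries the chosen genes deviated less than the other genes, and in each they deviated more than the 2.74% to 3.37% that counting error alone gives. The comparison with other genes was not matched for level. The chosen genes had median levels of 51.5 to 65.6 CPM, against 43.5 CPM in the other genes of the main choice. Between 75% and 88.5% of the chosen genes lay within 10% of the mean of the other 5 libraries, except in VaWRKY12 replicate 3, where 53.0% did and 18.5% lay beyond 20%.

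**Figure D3:**
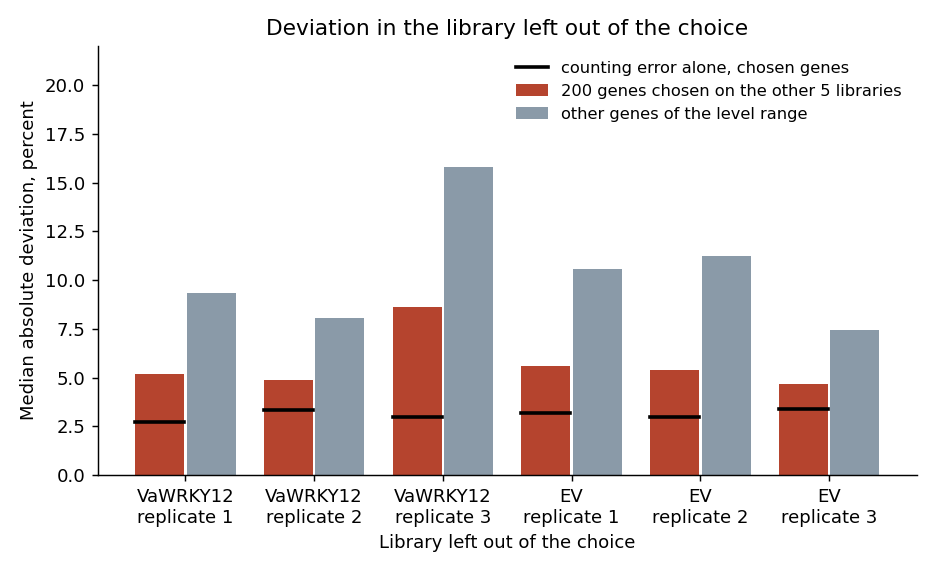
Median absolute deviation, in percent, in the library left out of the choice, for 200 genes chosen on the other 5 libraries and for the other genes of the level range; the black line is the median that counting error alone gives for the chosen genes. The chosen genes sit at 4.68% to 8.62%, under the other genes at 7.44% to 15.8% and above the line, with VaWRKY12 replicate 3 the highest.

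Membership moved with the libraries. Choices without 1 library shared 105 to 155 genes with the 200 members, with the fewest without VaWRKY12 replicate 3. In all, 83 members (41.5%) were chosen again whichever library was left out, and the other 117 were lost in at least 1 of the 6 choices. These 83 genes had a median CV of 3.04% and a median level of 63.2 CPM. Over 12 settings that used both genotypes (the 6 choices without a library and 6 with another scaling, measure or range), 58 members were chosen every time, and the 10 members with the lowest CV were all among them. All 12 reuse the same libraries, and a gene far below the cut can hardly leave the choice by losing 1 of them. That the lowest CVs were kept therefore largely follows from their rank, as does the low median CV of the 83 genes.

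Genes chosen for a low CV in one genotype were then looked at in the other. The 200 genes with the lowest CV over the 3 EV libraries (at most 1.85%) had a median CV of 7.30% over the 3 VaWRKY12 libraries, against 10.1% for 3989 other genes of the level range. The interquartile ranges overlapped, at 4.66% to 12.9% and 6.17% to 16.02%. With VaWRKY12 replicates 1 and 2 alone, the medians were 4.76% and 5.24%, as CVs over 2 libraries, which cannot be set beside those over 3. In the reverse direction, the 200 genes with the lowest CV over VaWRKY12 had a median CV of 6.19% over EV, against 8.22% for 4068 other genes, and the choice on VaWRKY12 replicates 1 and 2 alone gave 7.0% against 8.19%. Of the 200 members, 50 were among the genes chosen on VaWRKY12 alone and 43 among those chosen on EV alone, and 12 were among both. GSVIVT01003252001, GSVIVT01008087001, GSVIVT01000597001 and GSVIVT01016199001 were such genes among the 10 with the lowest CV.

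Within the groups the members had a median CV of 3.44% over the VaWRKY12 libraries and 3.14% over the EV libraries (n = 3 each), against 10.4% and 8.49% in the other genes. The highest value fell in a given library for 12.5% to 21.5% of members and the lowest for 12.5% to 18.5%. VaWRKY12 replicate 3 was the highest for 43 members and the lowest for 34.

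Between VaWRKY12 and EV callus, 0 of the 200 members were called by edgeR's quasi-likelihood test at a Benjamini-Hochberg adjusted p under 0.05, where 11.9% of the 16317 tested genes and 12.7% of the genes of the level range were called. At an unadjusted p under 0.05 the count was 0 members, against 26.1% of tested genes, and with DESeq2 it was 0, against 14.5%. The authors' deposited table holds 0 members at a false discovery rate under 0.05, against 11.6% of its genes. A choice of low spread over both groups removes genes that differ between them, so these counts follow from the choice. The edgeR log2 fold changes of the members (VaWRKY12 over EV), after TMM scaling, ran from -0.13 to 0.08, with a median of -0.02. By library totals, which the choice and CPM use, the VaWRKY12 mean was above the EV mean in 106 members (53.0%) and in 54.8% of the other genes. Of the members' log2 fold changes 187 lay within 0.1 of 0, as did those of 1225 of the 4070 other genes. Even so, the groups did not overlap in 35 members (17.5%), where 32.6% of tested genes had groups that did not overlap.

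The members with the largest differences in each direction were of this kind. GSVIVT01014122001, a gene of 4 exons on chromosome 19, had 93.3, 93.8 and 92.9 CPM in VaWRKY12 and 103, 100.1 and 98.6 CPM in EV. All 3 VaWRKY12 libraries lay below all 3 EV libraries, and edgeR gave a log2 fold change of -0.13 with an SE of 0.0742, which did not pass (adjusted p = 0.329). GSVIVT01038129001, a gene of 3 exons on chromosome 5, had 33.0, 33.3 and 32.7 CPM in VaWRKY12 and 31.0, 30.3 and 30.6 CPM in EV. All 3 VaWRKY12 libraries lay above all 3 EV libraries, and edgeR gave a log2 fold change of 0.08 with an SE of 0.0889 (adjusted p = 0.611).

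Gene structure was not used in the choice, and the introns of the members were longer in the median than those of the other genes of the level range. The lengths in the table hold coding exons only, so introns here are those between coding exons. The longest intron of a member had a median of 2892 bases (quartiles 1504 and 6047), against 1606 bases (672 and 3652) in the other genes. Introns took a median of 83.7% of the span from first to last coding base, against 72.6%, and this span had a median of 7109 bases against 4620 bases. An intron of at least 1000 bases was present in 167 members (83.5%) and in 66.7% of the other genes. Introns took less than 50% of the span in 18 members (9.0%) and in 23.2% of the other genes. No test was made across genes, which are not replicates.

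The median number of coding exons was 7 in members and 6 in other genes, and the mean exon was shorter, with medians of 156 and 194 bases. A single exon was found in 1 member and in 64 of the other genes. The median coding length was 1106 bases in members and 1215 bases in other genes, but with the libraries scaled by TMM or by DESeq2 size factors the genes chosen had medians of 1284 and 1334 bases, so the order of this difference depends on the scaling. Coding sequences of at least 3000 bases were found in 4 members (2.0%) and in 7.32% of the other genes.

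The longer introns were seen at each level of expression. In the band of 20 to 40 CPM the median longest intron was 2684 bases in 54 members and 1597 bases in 1820 other genes. In that of 40 to 80 CPM it was 2693 bases in 86 members and 1713 bases in 1504 other genes, and in that of 80 to 150 CPM 3229 bases in 60 members and 1493 bases in 746 other genes. By number of exons, the medians were 1860 bases in members and 988 bases in other genes with 2 to 4 exons. With 5 to 9 exons they were 2722 and 1716 bases, and with 10 or more exons 4916 and 2981 bases.

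The relation ran through the whole level range rather than at its stable end alone. With the 4270 genes in 10 classes of CV, the median longest intron was 2740 bases in class 1 (median CV 4.72%), 2037 bases in class 5 (11.2%) and 593 bases in class 10 (39.3%). The share of the span in introns had medians of 83.1%, 77.1% and 51.9% in these classes, and the number of exons medians of 7, 6 and 4, while the median coding length was 1140, 1227 and 1116 bases. Without VaWRKY12 replicate 3 the median longest intron was 2615 bases in class 1 and 621 bases in class 10. Spearman's rho between CV and longest intron was -0.33 across these 4270 genes over all 6 libraries, -0.24 over the VaWRKY12 libraries and -0.23 over the EV libraries. It was -0.32 without VaWRKY12 replicate 3 and -0.00 for coding length. These are descriptions across genes that share the same libraries and depths.

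**Figure D4:**
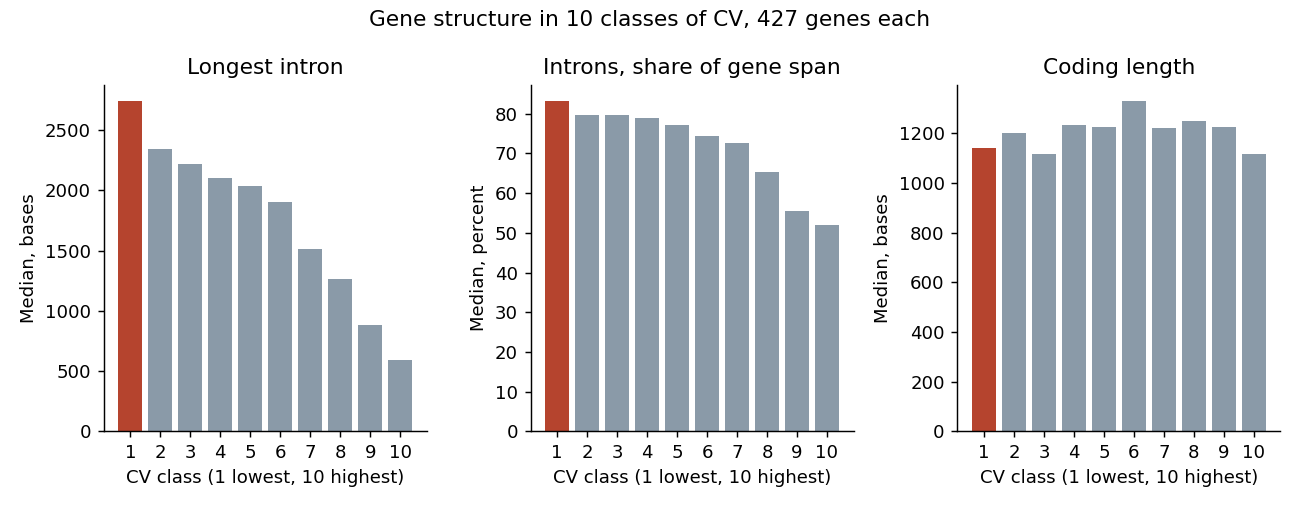
Median longest intron (bases), share of the span in introns (percent) and coding length (bases) in 10 classes of CV, 427 genes each; class 1, in red, holds the 200 members. The longest intron falls to 593 bases in class 10, against 2740 bases in class 1, and the coding length stays between 1116 and 1329 bases.

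Counted by intron length, of 409 genes with introns that were all under 250 bases, 5 were members (1.22%), and of 914 genes with 250 to under 1000 bases, 27 were (2.95%). The share was 4.48% at 1000 to under 3000 bases, 7.85% at 3000 to under 10000 bases and 5.65% (17 of 301 genes) at 10000 bases or more, and 1 of 65 genes without an intron was a member. The median CV was 18.4% under 250 bases and 9.69% at 10000 bases or more, and without VaWRKY12 replicate 3 these medians were 15.2% and 8.18%. edgeR called 21.3% of the genes whose introns were all under 250 bases and 21.3% of those at 250 to under 1000 bases. It called 3.99% of those at 10000 bases or more, against 12.7% in the level range. Of the genes without an intron it called 10.8% (7 of 65), although their median CV was 17.8%.

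Genes that could not become members were compared in the same way. The 3378 genes of 20 to 150 CPM with fractions of a read, which the choice left out, had a median CV of 18.9% where the longest intron was under 250 bases (149 genes) and of 9.49% where it was 10000 bases or more (325 genes). Among genes with whole reads above 150 CPM these medians were 15.7% (70 genes) and 9.94% (14 genes), and among those of 10 to 20 CPM 18.5% (221 genes) and 13.04% (99 genes). In each of these sets the genes with the longest introns had a lower median than those under 250 bases, with few genes in the last class above 150 CPM. The order between these classes was not steady. At 3000 to under 10000 bases the medians were 9.15% with fractions of a read and 9.53% above 150 CPM, both below the last class, and 13.3% at 10 to 20 CPM. At 10 to 20 CPM the median at 250 to under 1000 bases was 18.8%, above that under 250 bases. The members were chosen again in 14 other ways, which reuse the same libraries and overlap in their genes, so they are not separate findings. The median longest intron of the chosen genes ran from 1995 to 3388 bases. In all 14 it was above the median of the genes left over from the same choice, which ran from 1523 to 1877 bases. The lowest was the choice on the 3 EV libraries alone, with 1995 bases against 1686 bases. The highest was the choice with fractions of reads allowed, with 3388 bases against 1877 bases in a pool of longer introns.

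Single members show how wide the range was. GSVIVT01032296001 had the longest span, 86432 bases with 22 exons on chromosome 11 (14650957 to 14737388, minus strand). It reached 90.7, 92.3 and 93.2 CPM in VaWRKY12 and 85.4, 90.5 and 91.3 CPM in EV (CV 3.0%), with the lowest value in EV replicate 1 and overlapping groups. GSVIVT01023079001, with 13 exons on chromosome 12 (15655687 to 15716372), had the longest intron, of 24024 bases. It had 91.5, 90.8 and 84.8 CPM in VaWRKY12 and 93.4, 91.9 and 91.4 CPM in EV (CV 3.29%), and VaWRKY12 replicate 3 was its lowest library.

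At the compact end, GSVIVT01025306001 was the only member with a single coding exon, 558 bases on chromosome 6 (2244138 to 2244695). Its values were 33.6, 32.1 and 34.0 CPM in VaWRKY12 and 32.3, 32.5 and 34.1 CPM in EV (CV 2.79%), with overlapping groups. GSVIVT01030418001, with 2 exons on chromosome 12, had the shortest coding length, 183 bases. It had 27.9, 29.3 and 27.9 CPM in VaWRKY12 and 27.8, 29.3 and 29.8 CPM in EV, and per coding length 157 ± 4.85 RPKM (SD, n = 6). By contrast, GSVIVT01031368001, whose coding length of 17244 bases on chromosome 6 was the longest, had 3.40 ± 0.122 RPKM (SD, n = 6) at 59.1, 58.5 and 58.2 CPM in VaWRKY12 and 59.3, 55.0 and 61.5 CPM in EV. GSVIVT01000554001 on chromosome 1 had the most exons, 29, and a CV of 4.47% at a mean of 143 CPM.

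The members were spread over all 19 numbered chromosomes, which held 194 of them, with 6 on unplaced or random sequences. They made up 4.68% of the genes of the level range. The share was 7.91% (11 of 139 genes, 95% exact binomial interval 4.02% to 13.7%) on chromosome 9, 7.60% (19 of 250, 4.64% to 11.6%) on chromosome 4 and 1.75% (3 of 171, 0.363% to 5.04%) on chromosome 2. The intervals of all 19 chromosomes include 4.68%. They cover counting error only and treat genes as independent. The strand was plus for 107 members (53.5%) and for 53.8% of the other genes.

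Chromosome 2 was also where a single library was shifted. Deviations were of log2 of CPM plus 1 from a gene's mean over the 6 libraries, less the library's median deviation over the level range. In EV replicate 2 the median deviation of the level-range genes of chromosome 2 was -0.14, and in the other 5 libraries it lay between -0.03 and 0.05. Chosen without EV replicate 2, 7 of 172 genes (4.07%) of chromosome 2 were members, and 7 of 172 were chosen without VaWRKY12 replicate 3 as well, in which the median deviation was 0.03. Without each of the other 4 libraries 1 to 4 were chosen. Chromosome 15, with 4 members among 144 genes (2.78%), had a median of -0.08 in EV replicate 1 and of -0.01 to 0.04 in the others, and 7 of 140 genes (5.0%) when EV replicate 1 was left out, against 2 to 5 genes without each other library. On chromosome 4 the choice without VaWRKY12 replicate 3 took 11 of 248 genes (4.44%), that without EV replicate 1 took 13 of 254, and the others 18 or 19. The median deviations of chromosome 4 lay between -0.02 and 0.02 in the 6 libraries. What shifted chromosomes 2 and 15 was not tested, nor was the part of a shift in their shares.

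**Figure D5:**
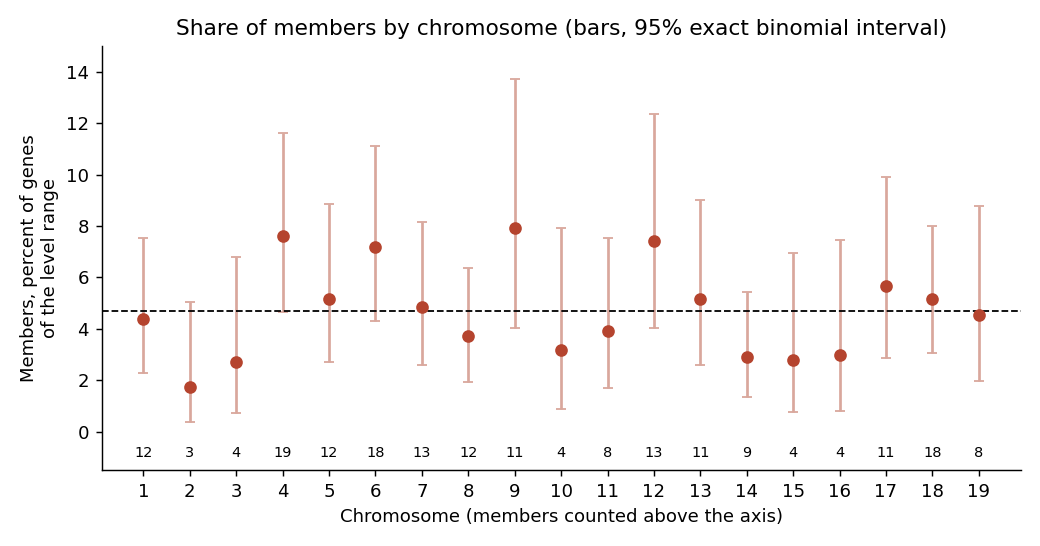
Members as a percent of the level-range genes of each numbered chromosome, with 95% exact binomial intervals; the dashed line is the share over all 4270 genes, 4.68%, and the number of members stands above the axis. The shares run from 1.75% on chromosome 2 to 7.91% on chromosome 9, and every interval includes the dashed line.

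The gap to the nearest gene of the table had a median of 2236 bases in members and 2532 bases in other genes, and a window of 200 kb around a gene held a median of 11 and 12 genes of the table. In 7 places 2 members were direct neighbours in the table, with gaps of up to 52770 bases. How many such places position alone would give was not computed. The closest of these were GSVIVT01017362001 and GSVIVT01017363001 on opposite strands of chromosome 9, 777 bases apart. GSVIVT01017362001 had 117, 121 and 129 CPM in VaWRKY12 and 119, 121 and 120.1 CPM in EV. GSVIVT01017363001 had 32.5, 32.8 and 31.0 CPM in VaWRKY12 and 32.8, 33.6 and 34.6 CPM in EV. VaWRKY12 replicate 3 was the highest library for the one and the lowest for the other.

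On chromosome 18, GSVIVT01009627001 and GSVIVT01009628001 lay 1744 bases apart on the minus strand at very different levels, with means of 133 and 21.9 CPM and CVs of 4.28% and 4.16%. Per coding length they stood at 79.8 ± 3.42 and 34.7 ± 1.44 RPKM (SD, n = 6). Of 385 genes that flank members and are not members, 107 were other genes of the level range, with a median CV of 11.3%, against 12.3% for the 3963 genes of the level range that did not flank a member.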

How the data were processed

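RNA-seq reads of 6 libraries were given per gene. The submitters' processing notes name Trimmomatic, HISAT2 2.0.5 and edgeR. They do not say which step each served, and the counter, the genome build and its annotation, and any use of strand were not stated, so antisense and overlapping genes cannot be told apart. The deposited table holds reads per gene, treated as estimated counts since some have fractions. It also holds RPKM, which equals reads per coding length and column total within 4.75e-06, and, per the file headers, the authors' log2 fold change and mean log2 CPM, F score, p-value and false discovery rate. All lengths are multiples of 3. Coordinates are as in the file. CPM used the column totals, and a value was called whole within 1e-06.

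Rounded reads were fitted with edgeR 4.0.16 (filterByExpr at a minimum count of 10, TMM factors 0.979 to 1.03, quasi-likelihood test of VaWRKY12 against EV, Benjamini-Hochberg adjusted p under 0.05). DESeq2 1.42.0, other scalings, filters, measures of spread and left-out libraries were alternatives. The fit and the choice were tried on simulated data. The genes simulated for the choice did not cover the lower levels of the range, so the choice was not checked there. Spread among these libraries may be technical, and p-values measure no more than that. Named members are those with the 10 lowest CVs, those beside the cut, the extremes of level, structure and fold change, and neighbouring pairs. The members and the lists were chosen with earlier results of these data known. Lists of reference and cold-response families could not be matched, since the identifiers carry no names.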

Additional observations from a re-analysis of the deposited data

How the results depend on the processing

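Of the 200 members, 132 were chosen again with DESeq2 size factors, 124 with the CV divided by the counting error, 94 with fractions of reads allowed, 43 on EV alone, 50 on VaWRKY12 alone, and 105 to 155 without single libraries. The median span was 8936 bases with fractions of reads allowed and 5382 bases on EV alone. On EV alone the median longest intron was 1995 bases and the intron share 78.1%, and on VaWRKY12 alone the intron share was 81.4%. In all 14 settings, which share libraries and genes, these 3 medians were above those of the genes left over from the same choice. This comparison was added after seeing the data. With fractions of reads allowed the median span of the genes left over was 5453 bases. The median coding length was 1284 bases with TMM and 1334 bases with DESeq2 size factors, against 1106 bases with library totals. Without VaWRKY12 replicate 3 the choice on EV had a median CV of 4.76% over VaWRKY12 replicates 1 and 2, against 5.24% in other genes. The choice on those 2 libraries had one of 7.0% in EV, against 8.19% in other genes. A CV over 2 libraries cannot be set beside one over 3, and the causes were not tested.

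Over all tested genes, 940 were called higher and 1005 lower in VaWRKY12. Without single libraries, and so with fewer samples, the genes called higher ran from 457 (without EV replicate 1) to 975 (without VaWRKY12 replicate 3). Those called lower ran from 524 (without EV replicate 2) to 1005 (without VaWRKY12 replicate 3). With whole-read genes only the counts were 627 and 589, with fewer genes tested. A fit with a replicate block called 1123 higher and 1129 lower; same-numbered libraries had deviation correlations of -0.06, 0.33 and 0.17, and equal numbers were read as names only. Depth limits members under 45.0 CPM, whose CV could not exceed the counting error.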
